A study of Mus musculus with 27 samples.

Results

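The 10 genes described here encode chains of the basement membrane, the sheet of matrix that wraps each muscle fibre and underlies the cells of vessels and nerves. They were taken by symbol from the deposited table, in which each of the 10 names matched 1 row of 54532 genes, and comprise the collagen IV chains Col4a1 and Col4a2, the laminin chains Lama2, Lama4, Lamb1, Lamb2 and Lamc1, the nidogens Nid1 and Nid2, and the perlecan gene Hspg2.

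RNA was measured by bulk polyA sequencing of whole tibialis anterior muscle in C57BL/6 male mice of 8 weeks. In VML (volumetric muscle loss) 40% of this muscle was cut away, and muscles were taken 3, 7, 14 and 21 days later. Of the 27 samples, 5 were uninjured controls, days 3 and 21 had 5 each, and days 7 and 14 had 6 each. The study's methods call the excision bilateral and the public record calls it unilateral, and the labels do not tie a sample to an animal, so p-values measure only the spread between these samples. The labels name no transgene or drug, and RNA came from homogenised muscle without sorting of cells.

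A basement membrane is built from 2 networks. Laminins, each a trimer of an alpha, a beta and a gamma chain, polymerise on the cell surface and bind integrins and dystroglycan, while collagen IV forms a cross-linked network that gives tensile strength. Nidogens and the heparan sulfate proteoglycan perlecan hold these networks together. In muscle the sheet survives many injuries as a tube within which satellite cells rebuild fibres, and the vessels carry a basement membrane of their own.

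Values are FPKM (fragments per gene length and sequencing depth, with a scaling between samples already in the deposited values). Changes are differences of group means of log2(FPKM + 1), which understate the change of genes at low FPKM, and a change was called at an adjusted p under 0.05 in limma across 14630 genes, all 10 members among them. Reads per sample totalled 14376395 to 24436763. The labelled tissue carried its markers, with Acta1 (skeletal actin) at 11868 to 38017.3 FPKM and Ckm (muscle creatine kinase) at 921 to 5493 FPKM. Over all tested genes, 9 of 27 samples lay nearer to another group than to their own. Among them, day 7 replicate 3 lay nearest to the uninjured samples and day 7 replicate 6 nearest to day 21. Their summed muscle fibre markers, 88370 and 77591 FPKM, lay within the uninjured range of 77229 to 94887. Day 3 replicate 5 lay nearest to day 7 and day 7 replicate 5 nearest to day 3, and their summed macrophage and monocyte markers went the same way, at 573 and 2891 FPKM against 1548 to 3012 in the other day 3 samples and 77.2 to 713 in the other day 7 samples. Both kept their labels, and results of the members that changed call or moved clearly without them are also given without them.

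In uninjured muscle the collagen IV genes and Lamb2 were the most abundant members per gene length. Mean FPKM with SD (n = 5) was 32.7 ± 4.17 for Col4a2, 28.8 ± 5.62 for Col4a1 and 25.9 ± 3.99 for Lamb2, and the ranges of these neighbours overlapped. Hspg2 followed at 14.9 ± 1.38, below every Lamb2 value and above every Lamc1 value. Lamc1 was at 8.08 ± 1.02 and Nid1 at 6.15 ± 2.05, with overlapping ranges. Lamb1 at 2.28 ± 0.504, Lama4 at 1.68 ± 0.158, Nid2 at 1.19 ± 0.614 and Lama2 at 1.04 ± 0.250 formed a lower tier in which each gene overlapped the next. Levels between genes depend on the length used, which for Lama2 was 16338 bases against 9614 in its longest coding transcript and for Lama4 12068 against 6046. Recomputed on that transcript, Lama2 stood at 1.77 and Lama4 at 3.35. The lowest read count behind any member's value was 27, for Nid2, while every Col4a1 value rested on at least 1689 reads.

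After injury, the laminin chains Lamb1 and Lama4 and the nidogen Nid1 rose at day 3, day 7 and day 14. On the deposited scale Col4a1 was called only at day 14, Lamb2 fell at day 3, and Lama2 and Hspg2 were called at no time. With FPKM rescaled to a common sum or to own totals of reads, Col4a1, Col4a2, Nid2 and Hspg2 were also called higher at day 3, and Lamb2 was not called. These scalings also raised the median of all genes at day 3, by 0.61 and 0.39. At day 3, 5 of the 10 members were called, 4 higher and 1 lower, against 43.2% of all tested genes called in either direction and 23.4% called higher. At day 7, 4 were called, all higher, against 29.4% in either direction and 15% higher. At day 14, 6 were called, all higher, against 20.3% in either direction and 9.02% higher. At day 21 none of the 10 was called by limma, against 3.43% in either direction and 1.74% higher, and 1 member, Nid1, had an unadjusted p under 0.05, while voom on the recovered reads also called 0. The median log2 change of the 10 was 0.47, 0.31, 0.69 and 0.19 at the 4 times, beside 0.01, 0.03, 0.02 and 0.01 over all tested genes. Without the replicates 5 of day 3 and day 7, an alternative chosen after seeing the data, the first 2 of these medians were 0.30 and 0.28. In the main fit, the share of members called was near the background at day 3 and above it at day 14. The day 14 count of 6 fell to 3 without a filter on low values and without any 1 of 5 of the samples.

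**Figure D1:**
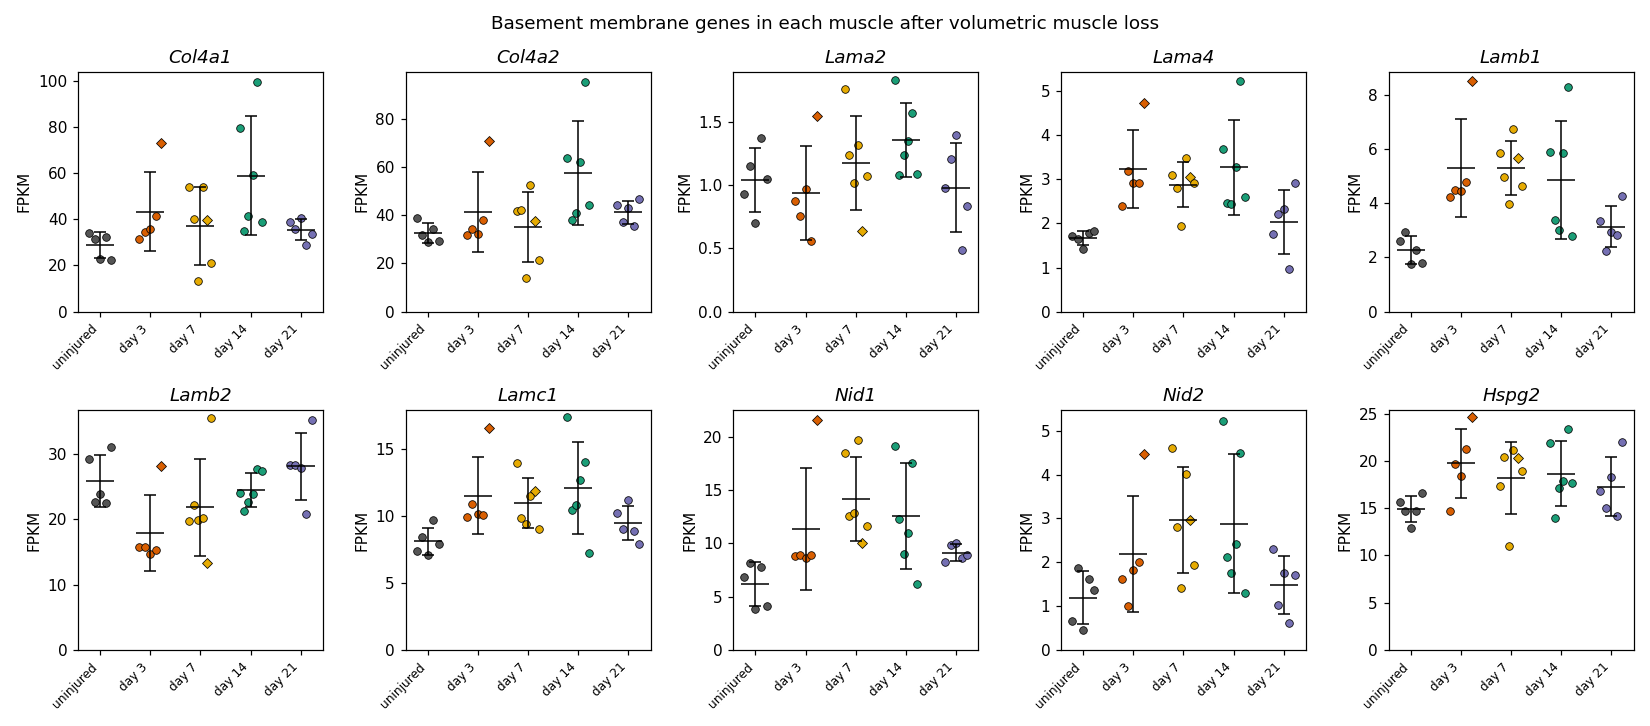
FPKM of the 10 genes in each muscle by group, with the group mean (bar) and SD (whiskers). Diamonds are the replicates 5 of day 3 and day 7, and day 3 replicate 5 is the highest of its group in all 10 panels.

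**Figure D2:**
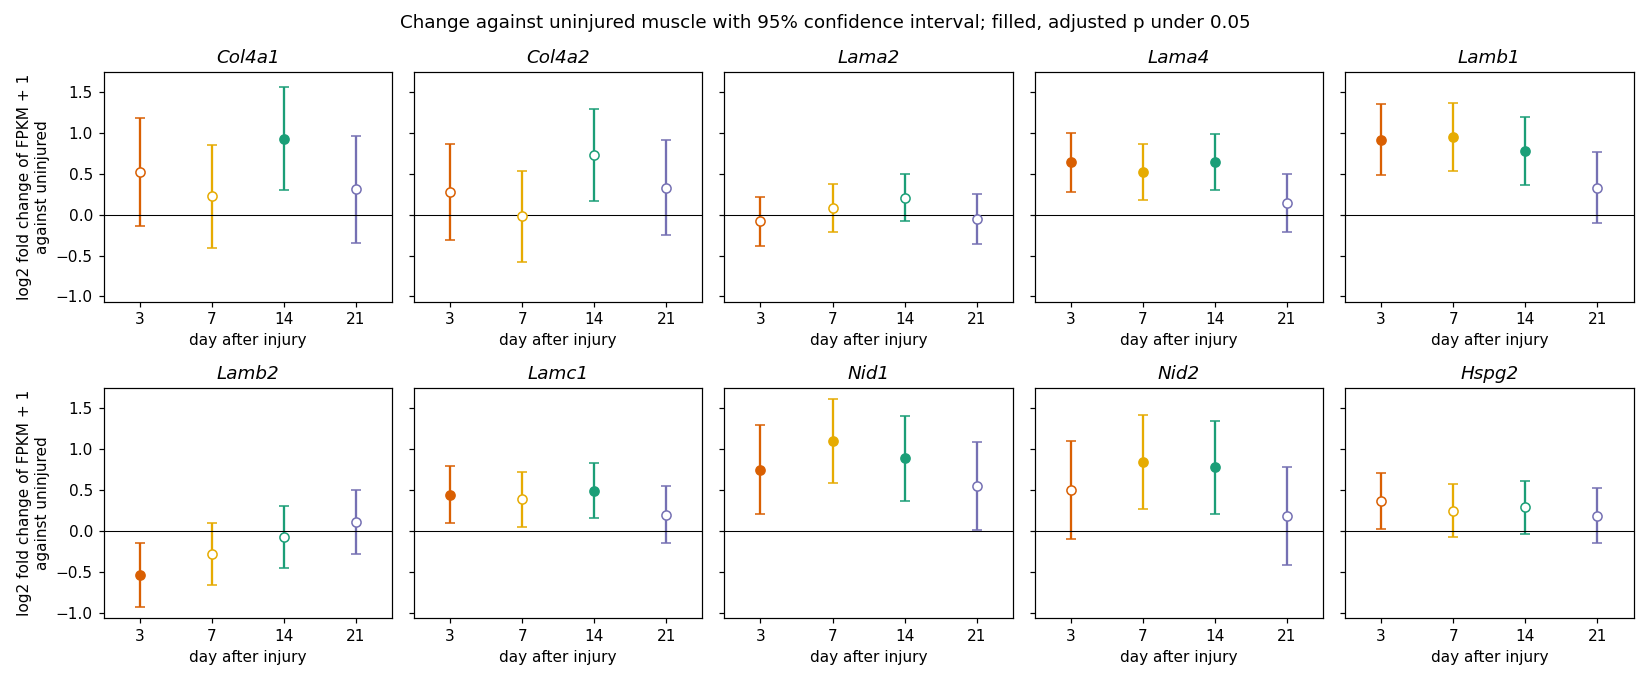
Difference of mean log2(FPKM + 1) against uninjured muscle at each day, with its 95% confidence interval from limma. Filled points passed an adjusted p of 0.05, and all points at day 21 are open.

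Collagen IV, the covalently linked network, is made in most tissues from the products of Col4a1 and Col4a2, which assemble into 1 heterotrimer. The genes lie head to head on chromosome 8 of GRCm38, Col4a1 at 11198423 to 11312826 on the minus strand and Col4a2 at 11312805 to 11449287 on the plus strand. Their annotated 5' ends overlap by 22 bases, where reads of a library without strand cannot be assigned to either gene. Their promoter windows (RefSeq, GRCm38.p6, 250 bases before to 50 after the start) are shown because the genes share this stretch and had similar profiles. The windows, chr8:11312777-11313076 on the minus strand and chr8:11312555-11312854 on the plus strand, have 78 bases in common. Capitals mark matches to the GC box letters GGGCGG and the CCAAT box letters CCAAT on either strand.
Col4a1: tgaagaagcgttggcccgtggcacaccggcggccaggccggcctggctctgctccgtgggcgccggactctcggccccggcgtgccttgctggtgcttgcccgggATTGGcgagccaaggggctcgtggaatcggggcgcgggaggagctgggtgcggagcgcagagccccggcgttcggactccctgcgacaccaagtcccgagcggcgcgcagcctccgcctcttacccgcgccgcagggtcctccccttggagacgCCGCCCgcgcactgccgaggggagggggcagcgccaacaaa
Col4a2: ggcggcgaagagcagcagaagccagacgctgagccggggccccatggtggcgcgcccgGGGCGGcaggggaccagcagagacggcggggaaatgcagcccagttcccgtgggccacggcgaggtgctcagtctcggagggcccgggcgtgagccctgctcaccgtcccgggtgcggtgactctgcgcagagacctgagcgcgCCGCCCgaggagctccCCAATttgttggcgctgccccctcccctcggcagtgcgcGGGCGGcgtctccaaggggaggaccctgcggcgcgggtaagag
The Col4a1 window was 74.0% G or C and held 1 GC box and 1 CCAAT box, and the Col4a2 window was 73.7% G or C and held 3 GC boxes and 1 CCAAT box. Of all 32851 windows of this length, 35.7% held at least 1 GC box, 10.7% at least 3 and 37.4% a CCAAT box. The TATA letters TATAAA were in neither window and in 13.6% of all.

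Col4a1 was at 34.3, 31.6, 22.9, 32.5 and 22.4 FPKM in uninjured replicates 1 to 5. At day 3 it was at 31.5, 34.5, 35.8, 41.2 and 73.3, and at day 7 at 54.2, 40.1, 13.3, 54.1, 39.8 and 21.2. Both groups overlapped the uninjured range, day 3 with only its lowest sample, and day 7 had 2 samples below all controls and 4 above. The 2 below were day 7 replicates 3 and 6, which over all tested genes lay nearest to the uninjured samples and to day 21. At day 14 the values were 79.8, 35.1, 41.5, 59.2, 99.7 and 38.8, all above every uninjured value. At day 21 they were 39.0, 35.6, 40.5, 28.9 and 33.6, with 3 of 5 above. The day 14 increase was 0.93 on the log2 scale (SE 0.31, adjusted p = 0.0332). The call was lost without any 1 of uninjured replicates 3 and 5 and day 14 replicates 1, 4 and 5 (adjusted p 0.0604 to 0.0978) and without a filter on low values (0.0750). At day 3 the change was 0.52 (SE 0.32, adjusted p = 0.195) and was called under a common sum (1.34, 0.0153) and own totals (1.17, 0.0191), or 0.73 and 0.77 relative to the median of all genes.

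Col4a2 ran beside it. It was at 39.0, 31.8, 29.04, 34.5 and 29.2 FPKM without injury and at 63.8, 38.2, 40.9, 62.0, 95.5 and 44.4 at day 14, where 5 of 6 samples lay above the controls. The log2 change was 0.73 (SE 0.27) with an adjusted p of 0.0581, so it narrowly missed the threshold that Col4a1 passed. Of the 11 other settings of the fit, 4 also left this change uncalled and the rest called it (adjusted p 0.0150 to 0.121). It was also called in 5 of the 27 fits that left out 1 sample (adjusted p down to 0.0249). At day 7 its change was near 0, at -0.02 (SE 0.27), and turned to 0.70 under rescaling to a common sum. Over the 27 samples, the profile most like that of Col4a2 was Col4a1, with a root mean square difference of 0.23 in log2 change from the uninjured mean. For Col4a1 the nearest was Col15a1 (0.20), the collagen XV of basement membrane zones, followed by Aplnr (0.23), the apelin receptor.

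The ratio of the pair within a sample does not depend on the scaling of that sample. Col4a1 to Col4a2 was 0.769 to 0.995 in uninjured muscle and 0.989 to 1.11 at day 3, where 4 of 5 samples lay above every control. The mean log2 ratio was higher by 0.26 at day 3 and 0.25 at day 7 (exact permutation tests, two-sided, p = 0.0159 and 0.0260, adjusted over 20 ratio comparisons 0.0317 and 0.0433). These calls did not hold without day 3 and day 7 replicates 5 together (0.0635 and 0.0794). With 1 sample left out, the day 3 call held only without uninjured replicate 2 or day 3 replicate 1, and the day 7 call only without uninjured replicate 2 or day 7 replicate 2 (adjusted p otherwise up to 0.0635 and 0.0952). At day 14 the difference was 0.20 (exact p = 0.0779, adjusted 0.120) and at day 21 it was -0.02 (exact p = 0.841, adjusted 0.886).

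On the deposited scale the beta chains moved in opposite directions at day 3. Lamb1 encodes the beta 1 chain and Lamb2 the beta 2 chain, which is concentrated at the neuromuscular junction of adult muscle. Their promoter windows are shown because their levels parted. Lamb1 lies at chr12:31265234-31329644 and Lamb2 at chr9:108479736-108490530, both on the plus strand, and the RefSeq starts used for the windows lie 59 and 126 bases inside these genes. The windows are chr12:31265043-31265342 and chr9:108479612-108479911, marked as above.
Lamb1: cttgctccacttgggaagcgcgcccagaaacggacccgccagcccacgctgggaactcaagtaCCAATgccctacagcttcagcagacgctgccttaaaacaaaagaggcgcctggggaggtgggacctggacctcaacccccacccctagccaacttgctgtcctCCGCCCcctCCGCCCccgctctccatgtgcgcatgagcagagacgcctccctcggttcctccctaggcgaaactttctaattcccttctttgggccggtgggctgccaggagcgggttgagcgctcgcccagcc
Lamb2: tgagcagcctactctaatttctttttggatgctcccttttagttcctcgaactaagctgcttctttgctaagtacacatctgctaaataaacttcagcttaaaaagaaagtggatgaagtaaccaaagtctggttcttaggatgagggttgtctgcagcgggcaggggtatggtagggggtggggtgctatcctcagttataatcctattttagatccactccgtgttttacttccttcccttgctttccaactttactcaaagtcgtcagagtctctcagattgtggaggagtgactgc
The Lamb1 window was 63.7% G or C with 2 GC boxes and 1 CCAAT box. The Lamb2 window was 44.0% G or C and held neither motif. Among all windows, 79.1% had a lower G or C content than that of Lamb1 and 19.2% a lower one than that of Lamb2.

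Lamb1 was at 2.60, 2.94, 1.76, 2.28 and 1.81 FPKM in the uninjured muscles. At day 3 it was at 4.25, 4.49, 4.44, 4.79 and 8.53, and at day 7 at 5.86, 4.98, 3.96, 6.74, 5.67 and 4.64. Every sample of both groups lay above every control. At day 14 the values spread from 2.79 to 8.32 with a median of 4.61, and 5 of 6 lay above the controls. At day 21 they were 3.35, 2.26, 2.96, 2.83 and 4.28, overlapping the controls. The log2 increases were 0.92 at day 3 (SE 0.21, adjusted p = 0.00108), 0.94 at day 7 (SE 0.20, 0.00158) and 0.77 at day 14 (SE 0.20, 0.00934). All 3 calls held in the 11 other settings of the fit and with any 1 sample left out. From day 3 to day 21 Lamb1 fell by 0.59 (SE 0.21, adjusted p = 0.0421), a call lost without the replicates 5 of day 3 and day 7 (-0.43, 0.130) and without any 1 of day 3 replicates 3, 4 and 5 and day 21 replicates 1 to 4 (0.0555 to 0.127). It was also lost without a filter (0.0831), under quantile normalization (0.0883) and with replicate letters as a block (0.0547).

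Lamb2 was at 29.3, 22.7, 23.9, 22.6 and 31.1 FPKM without injury. At day 3 it was at 15.7, 15.8, 14.7, 15.3 and 28.3, so that 4 of 5 samples lay below every control, while replicate 5 lay within the uninjured range. At day 7 it was at 19.8, 22.3, 19.9, 20.2, 13.4 and 35.6, with 5 of 6 below and replicate 6 above the controls. Day 14, at 21.3 to 27.8, and day 21, at 20.9 to 35.3, overlapped the controls. The day 3 change was -0.54 (SE 0.19, adjusted p = 0.0252), and it was -0.71 without day 3 replicate 5 (adjusted p = 0.00293). The call was lost without uninjured replicate 1 or 5 or any 1 of day 3 replicates 1 to 4 (0.0524 to 0.0686), and under quantile normalization (-0.44, 0.104). Its sign depended on the scaling. With FPKM rescaled to a common sum the change was 0.25 and with each sample's own total of reads 0.09 (adjusted p 0.305 and 0.667), settings that moved the median of all genes by 0.61 and 0.39. Relative to that median Lamb2 was lower in each, by -0.37 and -0.31. From day 3 to day 21 Lamb2 rose by 0.65 (SE 0.19, adjusted p = 0.0152), and by 0.05 under the common sum (0.875) and 0.20 with own totals (0.388).

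The ratio of Lamb1 to Lamb2 within a sample, free of that scaling, separated day 3 and day 7 from the controls. It was 0.0887, 0.129, 0.0736, 0.101 and 0.0582 in uninjured muscle and 0.271, 0.285, 0.303, 0.314 and 0.301 at day 3. The day 3 samples were close to each other, replicate 5 included, although its Lamb1 and Lamb2 levels were each the highest of the group. As a share of the summed FPKM of both chains, Lamb1 took 5.50% to 11.5% without injury and 21.3% to 23.9% at day 3. Per length of the longest coding transcript these shares were 8.46% to 17.03% and 30.1% to 33.3%, a rescaling that is the same in every sample and leaves differences of the log2 ratio as they are. The ratio was 0.130 to 0.424 at day 7, above every control in 6 of 6, and 0.102 to 0.300 at day 14, above in 5 of 6. At day 21 it was 0.0798 to 0.135, with 1 of 5 above. In log2 terms the ratio was higher by 1.76 at day 3, 1.52 at day 7 and 1.08 at day 14 (exact permutation p = 0.00794, 0.00433 and 0.00866, adjusted 0.0216 for each). The first 2 p-values are the smallest these group sizes allow. All 3 held with any 1 sample left out and without the replicates 5 of day 3 and day 7. At day 21 the difference was 0.35 (exact p = 0.190, adjusted 0.254).

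The alpha chains set the receptor that a laminin binds. Lama2, the alpha 2 chain of the muscle fibre sheath whose loss causes congenital muscular dystrophy, was at 0.699 to 1.37 FPKM without injury. Its group medians after injury were 0.874, 1.15, 1.29 and 0.976 at days 3, 7, 14 and 21, and each group overlapped the controls. Its log2 changes ran from -0.08 to 0.21 and none was called (adjusted p 0.301 to 0.877). Lama4, the alpha 4 chain of vessel walls and other mesenchymal tissue, was at 1.72, 1.66, 1.42, 1.78 and 1.82 FPKM. It reached 2.39, 3.19, 2.93, 2.91 and 4.73 at day 3. The day 7 samples lay between 1.95 and 3.49 with a median of 2.98, and those of day 14 between 2.43 and 5.23 with a median of 2.94. Every sample of these 3 groups lay above every control, while day 21, at 1.76, 2.22, 2.32, 0.960 and 2.92, lay on both sides. The log2 increases were 0.64 (SE 0.17, adjusted p = 0.00426), 0.53 (SE 0.17, 0.0195) and 0.64 (SE 0.17, 0.00868). They held with any 1 sample left out, and that of day 7 was lost under quantile normalization (0.39, adjusted p = 0.0721).

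Lama4 to Lama2 rose from 1.29 to 2.03 across the controls to 2.74 to 5.24 at day 3, without overlap. The log2 ratio was higher by 1.11 at day 3, 0.62 at day 7 and 0.52 at day 14 (exact permutation p = 0.00794, 0.0260 and 0.0130, adjusted 0.0216, 0.0433 and 0.0289). The day 3 result held with any 1 sample left out. At day 7 the difference was 0.44 without day 7 replicate 5, whose ratio of 4.81 was the highest of its group, and the adjusted p was 0.0794. The day 7 call was also lost without any 1 of uninjured replicates 1, 2, 4 and 5 and day 7 replicates 2, 4 and 6, and that of day 14 without any 1 of those 4 controls (adjusted p 0.0519 to 0.0952). At day 21 the difference was 0.33 (exact p = 0.190, adjusted 0.254).

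**Figure D3:**
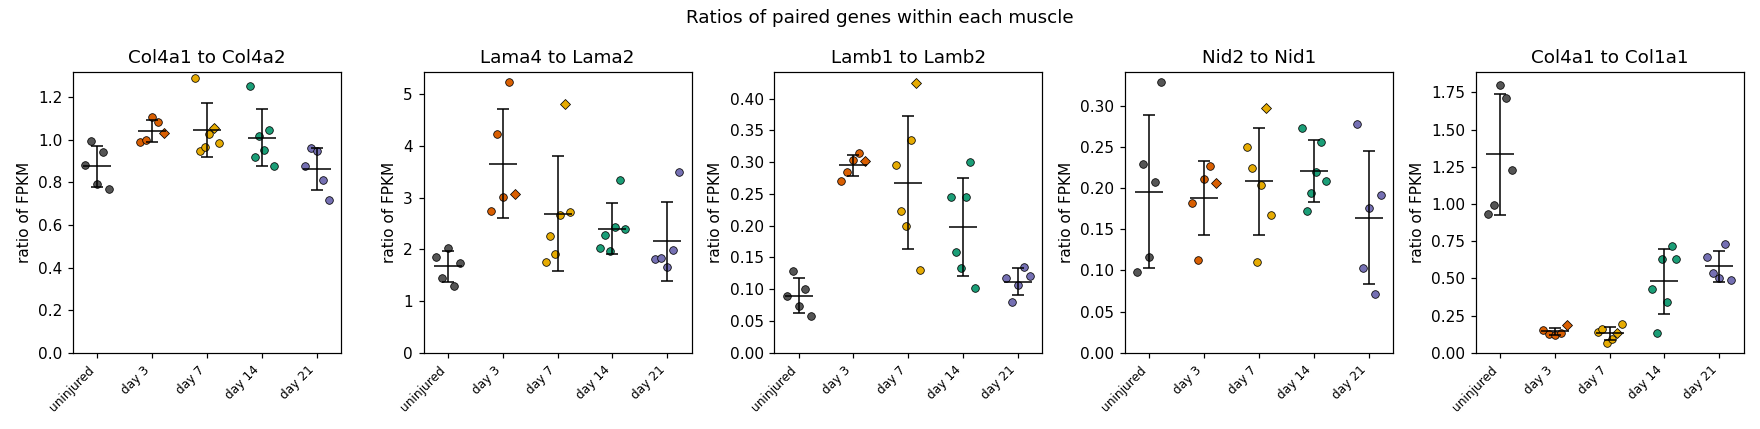
Ratio of FPKM of 2 genes within each muscle, by group, with the mean and SD. Lamb1 to Lamb2 at day 3 sits between 0.271 and 0.314, above all controls (0.0582 to 0.129), and Col4a1 to Col1a1 lies below all controls in every injured muscle.

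Lamc1, the gamma 1 chain that most laminins share, was at 7.40, 8.39, 7.05, 9.66 and 7.90 FPKM in the controls and at 9.87, 10.9, 10.1, 10.02 and 16.6 at day 3. All 5 day 3 samples lay above the controls, 4 of them by little. Day 7 (9.03 to 13.9), day 14 (7.22 to 17.4) and day 21 (7.87 to 11.2) each overlapped the controls. The increases called were 0.44 at day 3 (SE 0.17, adjusted p = 0.0381) and 0.49 at day 14 (SE 0.16, 0.0353). Without the replicates 5 of day 3 and day 7 the day 3 value was 0.31 (0.140). The day 3 call was also lost without any 1 of uninjured replicates 1, 2, 3 and 5 and day 3 replicates 2 and 5, and that of day 14 without those controls or day 14 replicates 1, 4 or 5 (0.0514 to 0.138). Without a filter both were lost (0.0667 and 0.0659), as were day 3 under quantile normalization (0.0943) and day 14 in a fit of the 2 groups alone (0.0608). At day 7 the change was 0.39 (SE 0.16, adjusted p = 0.0756). It was called with a replicate block by number (0.47, 0.0188) or by letter (0.45, 0.0286), under a common sum (1.10, 0.00804) and with own totals (0.88, 0.00851).

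The nidogens link laminin to collagen IV. Nid1 was at 6.82, 8.18, 3.82, 7.79 and 4.14 FPKM without injury and at 8.86, 8.93, 8.64, 8.87 and 21.6 at day 3. At day 7 it was at 18.5, 12.5, 12.9, 19.7, 9.99 and 11.6. Every sample of both groups was above every control, and day 3 replicate 5 was more than 2 times as high as the rest of its group. Day 14 spread from 6.19 to 19.1, with 5 of 6 above. At day 21 the values were 8.27, 9.83, 10.05, 8.59 and 8.94, again all above the controls, the nearest at 8.27 against 8.18. The increases were 0.75 at day 3 (SE 0.26, adjusted p = 0.0231), 1.10 at day 7 (SE 0.25, 0.00258) and 0.89 at day 14 (SE 0.25, 0.0151). At day 21 the change was 0.55 (SE 0.26, 95% interval 0.01 to 1.09), with an adjusted p of 0.242. The calls of day 7 and day 14 held in the 11 other settings and with any 1 sample left out. That of day 3 was lost without day 3 replicate 5 (0.51, adjusted p = 0.0983), without uninjured replicate 3 or 5 (0.0741 and 0.0679) and under quantile normalization (0.69, 0.0645).

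Nid2 was lower and more variable, at 0.668, 1.88, 0.445, 1.62 and 1.36 FPKM in the controls. At day 7 it was at 4.61, 2.82, 1.42, 4.01, 2.96 and 1.94, with 5 of 6 above the controls, and at day 14 at 5.23, 2.11, 1.75, 2.41, 4.50 and 1.30, with 4 of 6 above. The increases were 0.84 (SE 0.28, adjusted p = 0.0245) and 0.78 (SE 0.28, 0.0485). The day 14 call was lost in 16 of 27 fits that left out 1 sample and in 4 other settings (adjusted p up to 0.130). That of day 7 was lost without uninjured replicate 1 or 3 or day 7 replicate 1 or 4 (0.0602 to 0.0772), without a filter (0.0593) and under quantile normalization (0.0583). At day 3 its change was 0.50 (SE 0.29, adjusted p = 0.172). The ratio of Nid2 to Nid1 was 0.0978 to 0.328 in the controls. All samples of day 3 (0.112 to 0.227), day 7 (0.110 to 0.297) and day 14 (0.172 to 0.273) lay inside this range, and 1 of day 21 (0.0719 to 0.278) below it. The log2 differences of -0.27 to 0.29 gave exact permutation p of 0.364 to 0.929, adjusted 0.455 to 0.929, and the uninjured SD of 0.72 leaves differences of that size undetectable here.

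Hspg2 encodes perlecan, which holds growth factors on its heparan sulfate chains. It was at 15.7, 14.7, 12.9, 14.7 and 16.6 FPKM in the controls and at 14.7, 19.6, 18.4, 21.3 and 24.7 at day 3, with 4 of 5 above the controls. At day 7 and day 14, 5 of 6 lay above and 1 within or below their range. The log2 changes were 0.37 (SE 0.16, adjusted p = 0.0759), 0.24, 0.29 and 0.19, and none was called. In a fit of the 2 groups alone the day 3 value passed (adjusted p = 0.0397), as it did without day 3 replicate 1 (0.46, 0.0309) or day 7 replicate 3 (0.0383) and with a replicate block by letter (0.0481). Under a common sum it was 1.18 (0.00141) and with own totals 0.99 (0.00107), and these scalings also called day 7 (0.96 and 0.77, adjusted p = 0.00784 and 0.0103), while at day 14 own totals alone did (0.67, 0.0401).

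Between injured groups, day 14 and day 3 differed for none of the 10 members in limma, against 18.7% of all tested genes and 5.03% higher, with 2 members (Lama2 and Lamb2) at an unadjusted p under 0.05 and 0 members called by voom. Without the replicates 5 of day 3 and day 7 both passed, Lama2 by 0.40 (adjusted p = 0.0295) and Lamb2 by 0.64 (0.00310). Between day 21 and day 3, 3 members differed, Lamb2 higher and Lama4 and Lamb1 lower, against 25.5% in either direction and 9.23% higher. Lama4 fell by 0.49 (SE 0.17, adjusted p = 0.0374). That call was lost without the replicates 5 (-0.38, 0.110) and without any 1 of day 3 replicates 2 to 5 and day 21 replicates 1 and 4 (0.0580 to 0.136). It was also lost without a filter (0.0721), under quantile normalization (0.0810) and in a fit of the 2 groups alone (0.0798).

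Counted by ranges, 4 members lay wholly above the uninjured samples at day 3 (Lama4, Lamb1, Lamc1 and Nid1), against 19.8% of tested genes. At day 7 there were 3 (Lama4, Lamb1 and Nid1) against 7.25%, at day 14 there were 2 (Col4a1 and Lama4) against 7.67%, and at day 21 there was 1 (Nid1) against 5.26%. None lay wholly below at any time, against 16.5%, 5.37%, 8.05% and 5.13% of tested genes. Without day 3 replicate 5 the same 4 lay above at day 3, against 23.7%, and Lamb2 lay below, against 19.8%. Without day 7 replicate 5 the same 3 lay above at day 7, against 7.66%, and none below, against 5.56%. The median coefficient of variation over the members was 17.5% in the controls and 18.05% in the day 21 muscles. Larger values came from day 7 (29.8%), day 14 (35.2%) and day 3 (36.9%). The day 3 value rested on replicate 5 and was 9.86% without it, below that of the controls, and day 7 without its replicate 5 had 24.03%. The members shared their extreme samples. Day 3 replicate 5 was the highest of its group for all 10, uninjured replicate 3 the lowest for 8, day 21 replicate 4 the lowest for 7, day 7 replicate 3 the lowest for 6, and day 14 replicates 5 and 1 the highest for 6 and 4.

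Markers of other cell types moved in the same samples. In bulk muscle, fewer cells of a type and less RNA per cell cannot be told apart. The 9 endothelial markers summed to 105 to 141 FPKM in the controls. After injury the sums covered 75.7 to 167 (day 3), 52.6 to 134 (day 7), 87.4 to 228 (day 14) and 111 to 179 (day 21). None of the 9 was called higher at any time, and 2 were lower at day 3 and 1 at each later time. Day 14 replicate 5 had the highest endothelial sum and the highest Col4a1 of all 27, day 7 replicate 3 the lowest of both, and day 3 replicate 5 the highest of both in its group. Other samples parted. Day 7 replicate 6 had the highest endothelial sum of its group (134) with a Col4a1 of 21.2 FPKM, the second lowest, and day 21 replicate 5 the highest of its group (179) with 33.6, also the second lowest. Without day 3 replicate 5 the day 3 sums reached 95.1, below all controls. The 8 pericyte and smooth muscle markers summed to 148 to 184 FPKM in the controls and 80.6 to 163 at day 3 (to 100.3 without replicate 5), with 4 lower and 1 higher. Of 7 tested fibroblast and fibro-adipogenic markers, 4 were higher at day 3, day 7 and day 14 each, with sums of 116 to 151 in the controls and 180 to 347 at day 3 (to 206 without replicate 5). Of 9 muscle fibre markers, 8 were lower at day 3 (sums of 77229 to 94887 in the controls and 19550.2 to 51214 at day 3), and all 9 macrophage and monocyte markers were higher (30.8 to 43.0 and 573 to 3012). Of these 9, Adgre1, Itgam and Ly6c2 reached at most 0.325, 0.370 and 0.110 FPKM in the controls. They were tested only through injured muscles, and their calls carry no weight. The 6 satellite cell and myoblast markers summed to 25.6 to 34.96 FPKM in the controls and 82.6 to 321 at day 3 (from 221 without replicate 5), 4 of them higher. Their sums at day 14 (102 to 173) and day 21 (50.3 to 125) also lay above all controls and those of day 7 (32.4 to 222) overlapped them, with 2 markers higher at each of these times. The 5 neutrophil markers summed to 0.456 to 4.31 FPKM in the controls and 20.1 to 37.6 at day 3, where the 3 that were tested were higher. Among these 3, Csf3r was at most 0.270 FPKM in the controls, so it was tested only through injured muscles. Its call carries no weight, and Retnlg and Cxcr2 were too low to be tested. Of 6 lymphocyte markers 2 were tested and none was called. No endothelial, pericyte, fibroblast or fibre marker was at 0 in any sample. The part of these shifts in the members' changes was not tested.

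**Figure D4:**
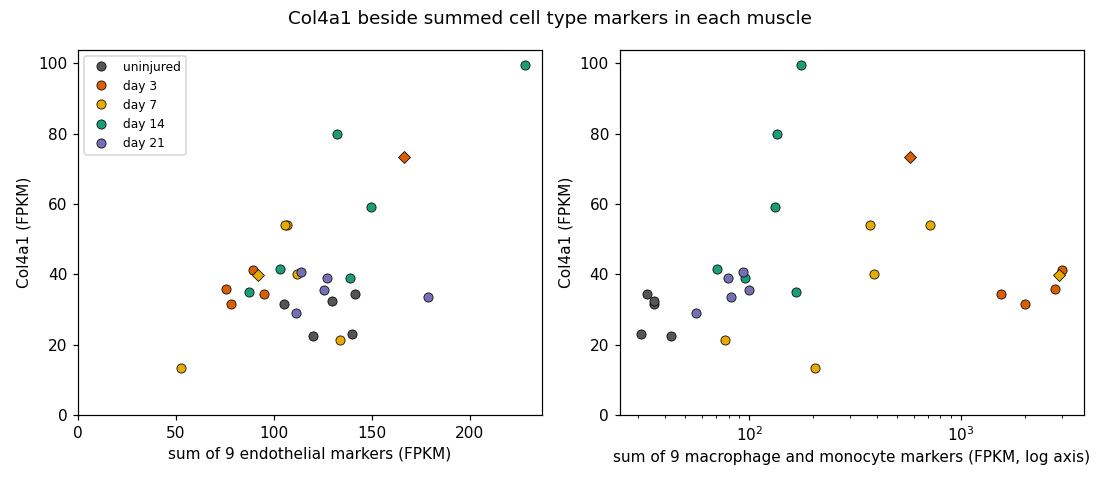
Col4a1 FPKM in each muscle against the summed FPKM of 9 endothelial markers (left) and of 9 macrophage and monocyte markers (right, log axis), coloured by group, with diamonds for the replicates 5 of day 3 and day 7. Day 14 replicate 5 is at the top right of the left panel, at 228 and 99.7 FPKM.

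Around the members, other basement membrane genes were tested for 13 of 22 listed, and 4, 3, 3 and 0 of these rose at days 3, 7, 14 and 21. Col18a1, the source of endostatin, rose by 2.06 at day 3 (adjusted p = 4.9e-06) from a mean of 1.93 to 11.3 FPKM. Col15a1 rose at day 14 (1.04, adjusted p = 0.0109), as Col4a1 did, and was not called at day 3 (0.59, 0.105). Fbln2 and Fbln1, fibulins that bind laminin and nidogen, rose at day 3 by 1.02 and 1.03 and Npnt, the nephronectin gene, by 0.94. The 9 not tested included the collagen IV chains Col4a3, Col4a4 and Col4a6, which did not reach 0.5 FPKM in 5 samples. The count at day 14 includes Col4a5, which reached 0.5 FPKM in 3 samples of day 14 and 2 of day 21 alone, so that it was tested only through the groups where it was high and its call carries no weight.

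Of 11 tested receptors, 5, 3, 2 and 1 rose. Itga7, the integrin alpha 7 chain of muscle fibres, rose by 1.22 at day 3 (from 11.2 to 29.03 FPKM) and was at 0.15 at day 21. The collagen receptor Ddr1 rose at all 4 times, by 0.73, 0.66, 0.83 and 0.52 (adjusted p = 0.0307 at day 21). Of 12 genes of assembly and cross-linking, 8 rose at day 3 and 8 at day 7, 6 rose and 1 fell at day 14, and none was called at day 21. Serpinh1, the collagen chaperone HSP47, rose by 2.33 at day 3 and Sparc, which binds collagen IV, by 1.61. Of 13 genes of proteolysis, 10, 9, 6 and 2 rose, led by Timp1, a metalloprotease inhibitor, at 4.46 on day 3 (from 2.85 to 75.0 FPKM) and 1.61 on day 21. The counts at day 3 and day 7 include Hpse, with a mean of 0.0741 FPKM in the controls and 4.19 at day 3. It was tested only through injured muscles, and its calls carry no weight. Mmp14 and Mmp2, which cut matrix proteins, rose by 2.51 and 1.39 at day 3.

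The fibrillar collagens, which build scar and tendon matrix and not basement membrane, rose in 6, 7, 5 and 3 of 8 genes, with median changes of 2.69, 2.40, 1.55 and 0.83. Within each muscle, Col4a1 to Col1a1 was 0.931, 0.993, 1.80, 1.71 and 1.23 without injury. After injury it covered 0.122 to 0.184 (day 3), 0.0683 to 0.192 (day 7), 0.135 to 0.718 (day 14) and 0.490 to 0.734 (day 21). All 22 injured muscles lay below all 5 controls. The mean log2 ratio differed by -3.18, -3.38, -1.61 and -1.16 (exact permutation p = 0.00794, 0.00433, 0.00433 and 0.00794, the smallest possible, each 0.0216 adjusted), and these held with any 1 sample left out and without the replicates 5. At day 21, when none of the 10 members was called, Col1a1 was at 63.1 ± 15.2 FPKM (SD, n = 5) against 23.7 ± 10.1 in the controls (n = 5).

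**Figure D5:**
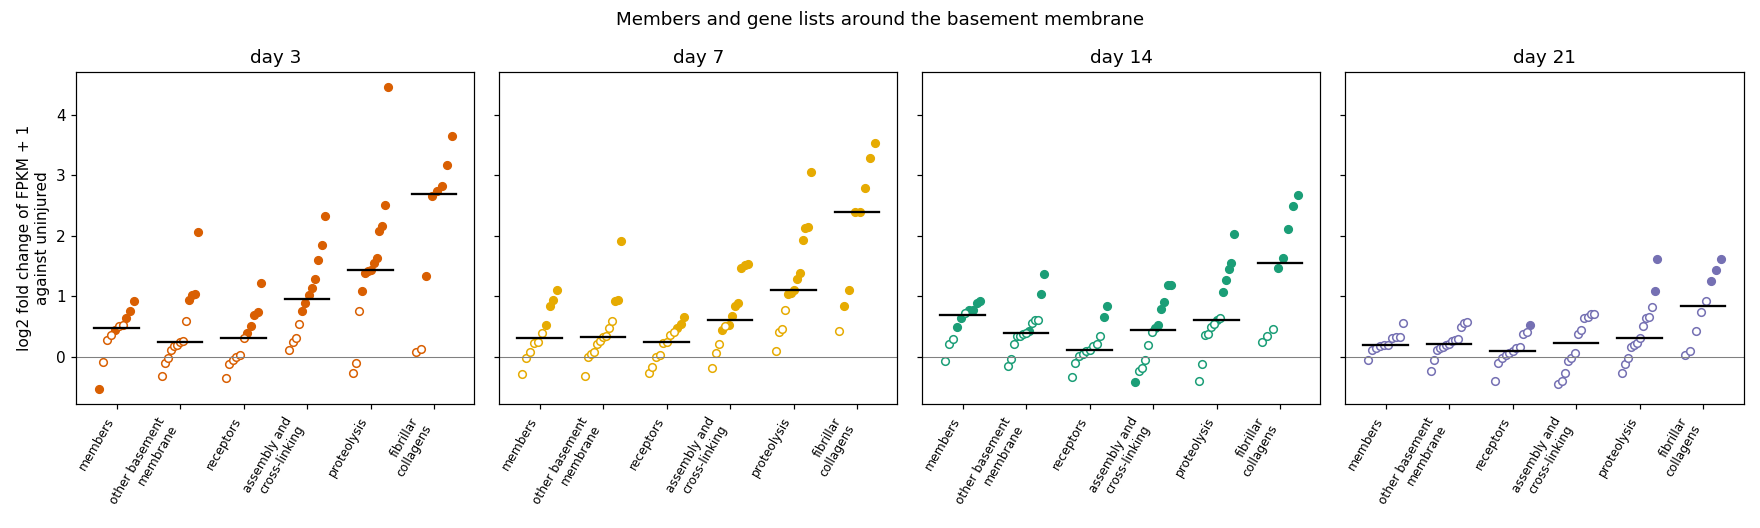
Log2 change against uninjured muscle of each tested gene of the 10 members and 5 gene lists at each day, with the list median (black line) and called genes filled. The medians of the members are 0.47, 0.31, 0.69 and 0.19, and those of the fibrillar collagens 2.69, 2.40, 1.55 and 0.83.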

How the data were processed

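RNA of 27 tibialis anterior muscles was sequenced from libraries without strand. The authors aligned reads with HISAT2 2.0.5, counted them per gene with featureCounts 1.5.0-p3 and deposited FPKM for each gene with its length and position. The genome build is not given in the sources used here, and 98.3% of the genes had the coordinates of GENCODE M21 on GRCm38. FPKM times length gave whole reads (within 0.01 reads) for 100% of genes in each sample, and the total to which FPKM was scaled was 0.747 to 1.48 times the sample's own reads. The recovered reads gave the totals and read counts per sample, the own-total scaling and an alternative fit with voom, and entered no main test.

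Values were transformed to log2(FPKM + 1). Genes at 0.5 FPKM or more in 5 or more samples (14630) entered 1 fit over all groups in limma 3.58.1 (R 4.3.3), which had a variance trend and two-sided tests, Benjamini-Hochberg adjusted within each comparison. Ratios of 2 genes within a sample were compared by exact permutation of group labels (scipy 1.17.1), adjusted over 20 comparisons. The fit was tested on simulated data with independent normal noise, where 87 to 113 of 14630 genes changed by each size at each time. Of genes changed by 1 on the log2 scale it recovered 78.6% to 88.5% over the 4 comparisons with uninjured muscle. Of those changed by 2 it recovered 96.2% to 99.0%. More genes were called in these data at every time, so these shares do not give its power here. With 5 or 6 samples a group, intervals of the members' changes were 0.58 to 1.31 wide on the log2 scale.

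Groups were read from sample titles. The members, gene lists and ratios were chosen with earlier results of these data known. Named genes are the members, up to 6 called genes of each list with the largest changes, the 3 nearest profiles of each member and the marker genes. Promoters came from RefSeq (GRCm38.p6), which held 7 of the 10 members, without Lama4, Lamc1 and Nid2. Alternatives were a pseudocount of 0.1, no filter (31179 genes), quantile, median-ratio, common-sum and own-total scaling, blocks by replicate number or letter, the 2 groups alone, voom, and samples left out.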

Additional observations from a re-analysis of the deposited data

Results flagged for a closer look

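Dixon's test was applied to 75 groups of values, the 10 members on the log2(FPKM + 1) scale and the 5 log2 ratios in each of 5 groups. It marked 8 values, where chance marks about 1 group in 20. At day 3 replicate 5, a value above the rest stood out for Col4a2 (gap over range 0.779), Lamb1 (0.835), Lamb2 (0.892), Lamc1 (0.814) and Nid1 (0.966). These 5 share 1 library and are not independent. Its Lamb1 to Lamb2 ratio, 0.301, lay inside the 0.271 to 0.314 of its group. At day 7 replicate 3, Hspg2 was low (0.690), at 10.999 FPKM beside 17.3 to 21.2 in the rest. The ratio of Col4a1 to Col4a2 was high in day 7 replicate 1 (0.653), at 1.29, and that of Lama4 to Lama2 in day 21 replicate 5 (0.765), at 3.5.

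The change from uninjured muscle differed between day 21 and day 3 for Lama4 (-0.49), Lamb1 (-0.59) and Lamb2 (0.65), tested as the direct comparison of these groups in limma. Both comparisons with uninjured muscle share the controls, so the difference rests on the injured samples alone. Those of Lama4 and Lamb1 were not called without the replicates 5 of day 3 and day 7 (adjusted p 0.110 and 0.130).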

How the results depend on the processing

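Lama4 at day 3 and day 14, Lamb1 at days 3, 7 and 14 and Nid1 at days 7 and 14 kept their direction and their call in all 11 other settings of the fit and with any 1 of the 27 samples left out. A pseudocount of 0.1 and median-ratio scaling left all 60 member comparisons on the same side of the threshold, voom on the recovered reads left 59, the 2 groups compared alone 55 and no filter 53. Rescaling to a common sum, which raised the median of all genes by 0.61, 0.55, 0.34 and 0.13 at days 3, 7, 14 and 21, and each sample's own total of reads, which raised it by 0.39, 0.33, 0.23 and 0.10, changed the sign of 11 each. Relative to the raised median, 8, 9, 10 and 9 of the 10 members stood above it in both. Under quantile normalization the median at day 3 fell by 0.13.

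Members called at day 3 (5) numbered 2 under quantile normalization, 8 with a common sum, 8 with own totals and 3 without the replicates 5 of day 3 and day 7. With a common sum and own totals the median of all genes at day 3 was itself raised, by 0.61 and 0.39. The counts of members under other settings are given without the share of all genes called, so they show only how the count moved. At day 7 (4) quantile normalization gave 2, at day 14 (6) no filter gave 3. Between day 14 and day 3 (0), quantile normalization gave 1 and the fit without both replicates 5 gave 2. Between day 21 and day 3 (3), no filter, quantile normalization and the fit without both replicates 5 gave 1 each. With 1 sample left out, the counts ran from 2 to 6 at day 3, from 3 to 7 at day 14, from 0 to 2 between day 14 and day 3, and from 1 to 3 between day 21 and day 3. The count at day 3 fell to 3 without uninjured replicate 1 or 3 or day 3 replicate 2 or 5 and to 2 without uninjured replicate 5. That of day 14 fell to 3 without uninjured replicate 3 or 5 or day 14 replicate 1, 4 or 5. The 3 calls between day 21 and day 3 fell to 1 without any 1 of day 3 replicates 3, 4 and 5 and day 21 replicates 1 and 4.

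Over all genes, 6582 passed at day 7 with a common sum against 4296. At day 21, where 502 passed, the count was 247 without a filter, 294 under quantile normalization, 72 with a common sum, 133 with own totals, 1477 with the 2 groups alone and 282 with voom. With 1 sample left out the count over all genes ran from 5289 to 6517 at day 3 and from 3251 to 5220 at day 7. It ran from 1895 to 3358 at day 14 and from 190 to 707 at day 21. Between day 14 and day 3 it ran from 1668 to 3334, and between day 21 and day 3 from 2316 to 4076.

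Same-numbered samples did not deviate together in every pair (correlations from -0.52 to 0.57), and 11 of 27 samples correlated best with their own number or letter. No chance level was computed for that count, so a shared block remains possible. With the replicate block by number the members called were 5, 5, 7 and 0 at the 4 times, and by letter 6, 5, 7 and 0. All genes called at day 21 were 795 and 1233 under the 2 replicate blocks, against 502 without a block. The counts of members at the other times are given without a count over all genes. Col4a2 at day 7 turned from -0.02 to 0.063 and 0.052.

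Signs that turned belonged to changes that were not called, except Lamb2 at day 3. With a common sum and with own totals, Col4a2 at day 7 became 0.70 and 0.52 (0.21 under quantile normalization), Lama2 at day 3 became 0.41 and 0.23 and at day 21 0.047 and 0.040, and Lamb2 became 0.25 and 0.095 at day 3, 0.42 and 0.25 at day 7 and 0.39 and 0.31 at day 14 (0.16 under quantile normalization). Between day 14 and day 3 they gave -0.29 and -0.19 for Lama4, -0.28 and -0.19 for Lamc1 and -0.19 and -0.10 for Nid1. Between day 21 and day 3 they gave -0.57 and -0.40 for Col4a2 and -0.36 and -0.19 for Lama2. Under quantile normalization Lama2 at day 7 was -0.073 and Hspg2 between day 14 and day 3 was 0.053. Without both replicates 5, Lamb1 and Hspg2 between day 14 and day 3 were 0.016 and 0.0056 and Nid1 between day 21 and day 3 was 0.042. With 1 sample left out, Col4a2 at day 7 ran from -0.16 to 0.21 and between day 21 and day 3 from -0.020 to 0.26. Lama2 ran from -0.13 to 0.045 at day 21 and from -0.044 to 0.13 between day 21 and day 3. Between day 14 and day 3, Lama4 ran from -0.11 to 0.12, Lamb1 from -0.29 to 0.016, Lamc1 from -0.060 to 0.18 and Hspg2 from -0.17 to 0.0056, and Nid1 between day 21 and day 3 ran from -0.27 to 0.042. The cause of these turns was not tested.

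The log2 ratio of Col4a1 to Col4a2 without both replicates 5 was 0.26 at day 3 and 0.25 at day 7, no longer called, and with 1 sample left out it ran from 0.21 to 0.31 at day 3, from 0.19 to 0.30 at day 7 and from -0.066 to 0.043 at day 21. That of Lama4 to Lama2 at day 7 was 0.44 without both replicates 5 and ran from 0.44 to 0.73 with 1 sample left out, and at day 14 from 0.42 to 0.60. That of Nid2 to Nid1 turned to -0.25, -0.26 and -0.11 at days 3, 7 and 14 on log2(FPKM + 1) and to -0.0076 at day 3 without both replicates 5, and ran from -0.18 to 0.26 at day 3 and from -0.053 to 0.38 at day 7. The ratios of Lamb1 to Lamb2 and of Col4a1 to Col1a1 kept sign and call in every alternative run.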

Other observations

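Members differed in the genes whose profiles over the 27 samples lay nearest to theirs, measured as the root mean square difference of log2(FPKM + 1) after the uninjured mean was subtracted. For Lamb1 these were Tcaf1 (0.24), Pxdn (0.25), the peroxidasin that cross-links collagen IV, and Clip3 (0.26). For Nid1 they were the complement genes Serping1 (0.27) and C1s1 (0.27) and the angiotensin-converting enzyme gene Ace (0.29). For Nid2 they were Svep1 (0.30), App (0.32) and Lamb1 (0.34). For Lama4 they were Arhgef40 (0.19), Spata6 (0.20) and Fbln5 (0.20), an elastic fibre gene. The members' own root mean square changes were 0.78 for Lamb1, 0.87 for Nid1, 0.73 for Nid2 and 0.54 for Lama4. For Lama2, whose own change was 0.24, the nearest gene lay at 0.16, so that the measure separates little there. These values are a description, and they hold no test.

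Of the 7 members with a promoter in the RefSeq table, Hspg2 held the most GC boxes, 5 against at least 4 in 5.49% of all windows. Lama2 and Nid1 held 1 each.

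The 6 Schwann cell markers, none of them called, summed to 30.9 to 231 FPKM in the controls and reached 1061 in 1 day 7 muscle.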
